A study of Homo sapiens with 15 samples.

Results

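HLA-B, HLA-C, HLA-E, HLA-F, B2M, TAP1, TAP2, PSMB8 and PSMB9 are 9 genes of the MHC class I antigen presentation pathway, and the histone marks at their promoters and at the regions linked to them were compared between 3 forms of one breast cancer cell line. The genes were chosen by name. Their H3K4me3 peaks were those within 2 kb of a start of a protein-coding transcript of a listed gene, which gave 9 of 22572 peaks. Their H3K27ac peaks were those within 100 kb of such a start for which no other protein-coding gene had a nearer one, which gave 22 of 62195 peaks. H3K4me3 marks active promoters, and H3K27ac marks active promoters and enhancers. Each gene had a peak in both marks.

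The cells were MDA-MB-231, a human triple-negative breast cancer line of epithelial origin (Par), and its metastatic sub-populations LM2, which colonizes the lung of mice, and BrM2, which colonizes the brain. Both sub-populations were selected in vivo from the same line and are therefore single selected derivatives, not independent tumors. All cells were untreated, were grown as a monolayer in medium with 10% serum for 3 days, and were cross-linked for 10 min with 1% formaldehyde according to the labels. Each line had 2 replicates per mark, which gave 12 libraries. The methods call the replicates biological, but no label says whether they came from separate cultures, so p-values measure only the spread between these libraries. Counts in peaks ranged from 3489607 to 9839629 per library for H3K4me3 and from 1994996 to 6450028 for H3K27ac. Among markers checked by H3K4me3 promoter peaks, all 11 epithelial and MDA-MB-231 markers had a peak, while the leukocyte markers PTPRC, CD3E, LYZ, SPI1, CD79A, FCGR3A and TYROBP had none. The leukocyte marker CD14 had a peak, at 5.28 to 15.96 CPM, the counts of a peak scaled to the total of its library in all peaks. The epithelial marker CDH1 was as weak, at 2.01 to 8.03 CPM. KRT7 had 114 and 127 CPM in Par, 30.1 and 43.7 CPM in LM2, and 20.1 and 25.8 CPM in BrM2. Not every marker fell. The stronger EPCAM peak rose from 22.9 and 23.4 CPM (Par) to 32.1 and 39.2 (LM2) and to 51.9 and 42.4 (BrM2). Among the 15 epithelial and MDA-MB-231 peaks, DESeq2 with line only (fits described below) called KRT7 alone, lower in both sub-populations. With the replicate number added, it called 1 higher and 3 lower in LM2 (14.4% of all tested peaks called). In BrM2 it called 3 higher and 2 lower (17.7%). Of 4 endothelium and fibroblast markers, COL1A1 (14.9 to 35.5 CPM) and PDGFRB (3.15 to 10.1 CPM) had a peak, and PECAM1 and CDH5 had none. A peak alone thus does not tell these cell types apart.

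MHC class I molecules show peptides from inside a cell to cytotoxic T cells. The proteasome cuts proteins into peptides, the TAP1 and TAP2 proteins form the pump that carries them into the endoplasmic reticulum, and there they are loaded onto a heavy chain (HLA-B, HLA-C, HLA-E or HLA-F) paired with the light chain B2M. PSMB8 and PSMB9 are immunoproteasome subunits that replace constitutive ones, and most of these genes are known to respond to interferon through elements in their promoters.

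The promoters are shown first, because the H3K4me3 peaks lie over them, because such elements can be read in them, and because the class I heavy-chain promoters are alike in sequence. RefSeq promoter windows, from 250 bases before to 50 bases after each start, were given for 8 genes in 10 windows, and all 10 matched GRCh37 (hg19, the build of the peaks) exactly. The 250 bases before the start are given for 6 of them, 5′ to 3′ on the strand of the gene. Capitals mark matches on either strand to an interferon-stimulated response element in its shorter (GAANNGAAA) or longer (GAAA, any 2 bases, GAAA) form or to an NF-kappaB element (GGGNNTTCC), and those at the end of B2M and PSMB8 begin a match that runs past the start.
HLA-B: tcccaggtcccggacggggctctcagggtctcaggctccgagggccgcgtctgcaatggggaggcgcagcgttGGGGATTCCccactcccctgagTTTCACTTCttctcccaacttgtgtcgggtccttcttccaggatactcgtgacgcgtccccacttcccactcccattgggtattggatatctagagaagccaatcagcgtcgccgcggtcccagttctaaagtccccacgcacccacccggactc
HLA-C: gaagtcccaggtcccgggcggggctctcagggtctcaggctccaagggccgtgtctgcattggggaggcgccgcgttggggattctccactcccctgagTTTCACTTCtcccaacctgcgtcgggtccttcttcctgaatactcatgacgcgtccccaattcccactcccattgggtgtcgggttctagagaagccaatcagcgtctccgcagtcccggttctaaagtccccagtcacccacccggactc
B2M: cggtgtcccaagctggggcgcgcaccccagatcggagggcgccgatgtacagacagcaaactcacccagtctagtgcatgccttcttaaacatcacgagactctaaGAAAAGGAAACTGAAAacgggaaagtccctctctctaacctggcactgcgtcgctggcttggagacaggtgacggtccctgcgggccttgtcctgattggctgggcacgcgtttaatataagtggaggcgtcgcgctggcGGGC
TAP1: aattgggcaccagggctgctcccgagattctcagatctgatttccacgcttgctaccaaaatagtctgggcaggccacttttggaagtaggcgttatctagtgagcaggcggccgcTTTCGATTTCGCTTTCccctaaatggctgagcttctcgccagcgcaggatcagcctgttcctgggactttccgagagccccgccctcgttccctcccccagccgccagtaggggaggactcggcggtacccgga
TAP2: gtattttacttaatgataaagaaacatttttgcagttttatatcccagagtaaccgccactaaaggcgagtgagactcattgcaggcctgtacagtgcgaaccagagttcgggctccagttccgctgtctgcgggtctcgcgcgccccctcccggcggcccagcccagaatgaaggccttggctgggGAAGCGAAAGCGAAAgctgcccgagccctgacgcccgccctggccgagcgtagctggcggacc
PSMB8: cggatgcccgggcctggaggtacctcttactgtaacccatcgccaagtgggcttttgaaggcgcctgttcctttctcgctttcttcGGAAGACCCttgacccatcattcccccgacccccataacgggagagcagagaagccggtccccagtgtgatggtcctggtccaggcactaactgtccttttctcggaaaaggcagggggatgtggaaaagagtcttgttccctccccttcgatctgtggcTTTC

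In GRCh38.p14, the RefSeq build, these stretches are chr6:31357180-31357429 (HLA-B, minus strand), chr6:31272093-31272342 (HLA-C, minus), chr15:44711267-44711516 (B2M, plus), chr6:32853705-32853954 (TAP1, minus), chr6:32838740-32838989 (TAP2, minus) and chr6:32844048-32844297 (PSMB8, minus). The HLA-B, HLA-C, B2M, TAP1 and PSMB8 stretches lay wholly inside an H3K4me3 peak, and that of TAP2 ran past the edge of its peak. The HLA-B and HLA-C windows were identical at 88.5% of aligned columns, HLA-B and HLA-F at 79.2%, and HLA-B and B2M at 48.0%. The shorter interferon element was found in 4 of the 10 windows (HLA-B, HLA-C, TAP2 and one of the PSMB8 windows), against 7.66% of the 35116 RefSeq windows of the same length. The longer form, searched only after the data were seen, was in 5 (HLA-F, B2M, TAP1, TAP2 and PSMB8), against 3.57% of all windows. Both forms overlap in TAP2, and the matches of PSMB8 to both reach past its start, beyond the stretch shown. The NF-kappaB element, searched only as GGGNNTTCC, was in 3 windows (6.58% of all). The core of the cAMP response element (TGACG) was in 6 (24.6%) and the CCAAT box (CCAAT) in 6 (34.6%). NF-kappaB elements of another length were not searched, so gggactttcc in TAP1 stands in lower case. Lower case therefore does not show that a window lacks an NF-kappaB site. A match says only that these letters stand in the window.

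The strength of H3K4me3 differed several-fold among the promoters. Levels are compared here as CPM per kb of peak, averaged over the 6 libraries, and as a percentile among the 13369 promoter peaks of the mark. The order ran from the peak shared by PSMB9 and TAP1 (42.8 CPM per kb), through HLA-E (39.7), TAP2 (33.1), the peak shared by PSMB8 and PSMB9 (30.8), B2M (25.3), HLA-F (20.1) and HLA-C (13.7), to the main HLA-B peak (12.3). The immunoproteasome and TAP genes thus stood with HLA-E in the upper part of all promoters, at percentiles 66.0 to 85.5, and HLA-C and HLA-B in the lower part, at percentiles 23.7 and 21.1. Neighbors in this order were not fully apart: the PSMB9/TAP1 peak was above HLA-E in 4 of 6 libraries, and HLA-C was above HLA-B in 5 of 6. HLA-F was above HLA-C in all 6. Reads of the class I heavy-chain genes can match more than one of these genes, and no mapping-quality limit is stated for the alignments, so levels of HLA-B, HLA-C and HLA-F are uncertain.

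Each H3K4me3 promoter peak overlapped an H3K27ac peak except the weak one at the upstream HLA-B start. In H3K27ac the HLA-E promoter was again high, at 14.0 CPM per kb (percentile 83.8 among 15173 promoter peaks), and it exceeded the next promoter, PSMB8/PSMB9 (8.84 CPM per kb), in all 6 libraries. The other H3K27ac promoter levels were 7.68 for B2M, 6.80 for PSMB9/TAP1, 6.45 for TAP2, 5.53 for HLA-B, 3.08 for HLA-F and 2.84 for HLA-C. PSMB9/TAP1 was thus first in H3K4me3 but near the middle in H3K27ac (percentile 41.8), and HLA-C and HLA-F were among the lowest promoters of H3K27ac (percentiles 2.66 and 4.403). The HLA-F value rested on 1 to 15 counts per library and the HLA-B value on 7 to 14.

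To determine whether H3K4me3 at these promoters differed between the lines, the 9 peaks were read from fits over all peaks of the mark (DESeq2 Wald test, Benjamini-Hochberg adjusted p under 0.05 called changed). None of the 9 was called in LM2 against Par, where 2.51% of all tested peaks were called, and none in BrM2 against Par (3.61%), in both sub-populations averaged against Par (2.63%) or in BrM2 against LM2 (3.18%). DESeq2 gave 0 of the 9 an unadjusted p under 0.05 in any of these contrasts, and edgeR called 0 of the 9, beside 1.61%, 3.07%, 1.60% and 2.81% of all peaks. Member medians of the log2 fold change were -0.13 in LM2 and -0.18 in BrM2, beside 0.00 and -0.06 over all peaks averaging 50 or more normalized counts. Standard errors were at least 0.31 in the comparisons of single lines in this fit. Same-numbered replicates deviated together in this mark, so the replicate number was also added to the model as a block. DESeq2 then called 2, 0, 1 and 1 of the 9 peaks in the same 4 contrasts, given gene by gene below, beside 14.4%, 17.7%, 15.2% and 22.0% of all tested peaks. With the block, edgeR called 4, 3, 2 and 4 of the 9, beside 26.2%, 33.3%, 27.1% and 38.6% of all peaks.

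**Figure D1:**
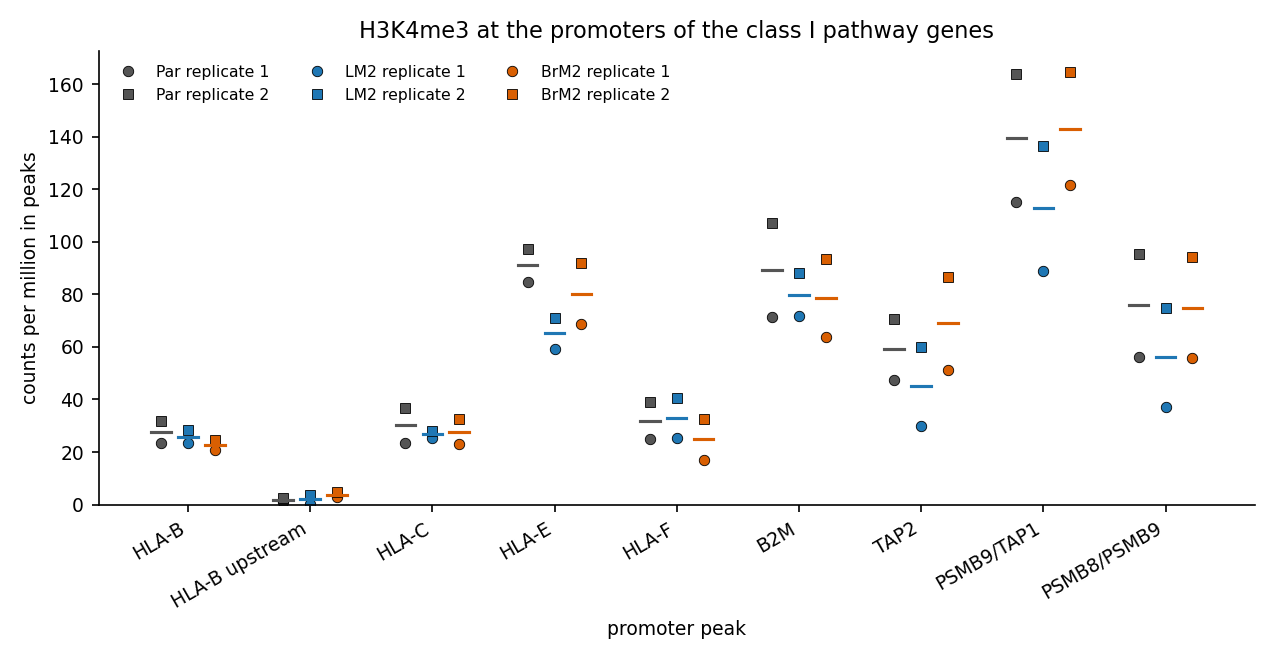
H3K4me3 in CPM (vertical axis) at the 9 promoter peaks (horizontal axis), with circles for replicate 1, squares for replicate 2 and bars for the mean of each line. HLA-E is lower in both LM2 libraries (59.2 and 71.1) than in both Par libraries (84.5 and 97.4). In CPM every peak has replicate 2 above replicate 1 in each line, which does not hold in normalized counts, for example at HLA-E in Par and LM2.

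Among the heavy chains, HLA-B (chr6:31323375-31325442, covering its start) had 23.5 and 31.9 CPM in Par, 23.4 and 28.3 CPM in LM2, and 20.7 and 24.5 CPM in BrM2 for replicates 1 and 2. The ranges of the lines overlapped in CPM, and HLA-B differed by -0.07 ± 0.36 (SE) on the log2 scale in LM2 and by -0.35 ± 0.36 in BrM2 (95% interval -1.06 to 0.36, adjusted p = 0.962). A second peak at an upstream HLA-B start (chr6:31334429-31335115) was weak, with 1 to 38 counts per library, and reached 2.84 and 4.71 CPM in BrM2 against 0.86 and 2.38 CPM in Par, a log2 fold change of 1.14 ± 0.96 (adjusted p = 0.882). This second peak also covers a DHFRP2 pseudogene and a noncoding RNA gene. HLA-C (chr6:31238724-31240773) gave 23.5 and 36.8 CPM in Par, 25.5 and 27.9 CPM in LM2, and 22.9 and 32.5 CPM in BrM2. Its log2 fold changes were -0.13 ± 0.37 in LM2 and -0.18 ± 0.37 in BrM2, inside the spread of the replicates.

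HLA-E, whose product binds signal peptides of other class I molecules and is read by receptors of natural killer cells, was the heavy chain with the lower values in LM2. Its peak (chr6:30456754-30458737) had 84.5 and 97.4 CPM in Par, 59.2 and 71.1 CPM in LM2, and 68.5 and 91.8 CPM in BrM2. The LM2 libraries lay below both Par libraries. The log2 fold change was -0.45 ± 0.31 in LM2 (95% interval -1.06 to 0.15, adjusted p = 0.906) and, with the replicate block in DESeq2, -0.45 ± 0.15 (adjusted p = 0.0189). DESeq2 with the block also called it for the mean of both sub-populations (-0.35 ± 0.13, adjusted p = 0.0400), and not in BrM2 alone (-0.25, adjusted p = 0.269), where edgeR with the block called it (adjusted p = 0.0438). HLA-F (chr6:29690668-29692157), a class I gene known for low and restricted surface expression, had 24.9 and 39.0 CPM in Par, 25.5 and 40.4 CPM in LM2, and 17.0 and 32.7 CPM in BrM2. HLA-F differed from Par by 0.07 ± 0.39 in LM2 and by -0.43 ± 0.39 in BrM2, and by -0.50 ± 0.39 between BrM2 and LM2 (adjusted p = 0.790, and 0.0912 with the block in DESeq2). HLA-F was called by edgeR with the block as lower in BrM2 than in LM2 (adjusted p = 0.0109) and than in Par (0.0330).

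The light chain B2M lies on chromosome 15 (chr15:45002695-45005956, a peak that also covers an exon of PATL2). It had 71.4 and 107 CPM in Par, 71.6 and 88.2 CPM in LM2, and 63.7 and 93.4 CPM in BrM2, and all 3 lines overlapped. The B2M log2 fold change was -0.12 ± 0.32 in LM2 (95% interval -0.74 to 0.51) and -0.25 ± 0.32 in BrM2 (-0.87 to 0.38), with adjusted p-values of 1.00 and 0.996. With the block, B2M in BrM2 against Par was called by edgeR (adjusted p = 0.0343) and not by DESeq2 (0.278).

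The transporter and immunoproteasome genes lie side by side. TAP2 (chr6:32804939-32806678) had 47.3 and 70.7 CPM in Par, 30.1 and 60.1 CPM in LM2, and 51.3 and 86.6 CPM in BrM2. BrM2 was above LM2 in both replicate numbers, by a log2 fold change of 0.53 ± 0.37 (adjusted p = 0.714), and with the block in DESeq2 by 0.54 ± 0.17 (adjusted p = 0.0110). The peak of PSMB8 (chr6:32810738-32812973), which also covers a start of PSMB9 and the antisense gene PSMB8-AS1, had 56.2 and 95.5 CPM in Par, 37.2 and 74.9 CPM in LM2, and 55.9 and 94.1 CPM in BrM2. In LM2 it differed from Par by -0.42 ± 0.37 (adjusted p = 1.00), and it was called by DESeq2 with the block (-0.42 ± 0.16, adjusted p = 0.0468). The peak between TAP1 and PSMB9, which are transcribed away from each other (chr6:32819895-32822974), had 115 and 164 CPM in Par, 89.0 and 136 CPM in LM2, and 122 and 164 CPM in BrM2. TAP1 and PSMB9 cannot be told apart in this peak, and its log2 fold change of -0.28 ± 0.31 in LM2 was not called by DESeq2 with the block (adjusted p = 0.0826). With the block, edgeR called it in LM2 against Par (adjusted p = 0.00502) and in BrM2 against LM2 (0.0155). It also called TAP2 in LM2 against Par (0.0245), and PSMB8/PSMB9 in LM2 (0.00417), for the mean of both sub-populations (0.0421) and in BrM2 against LM2 (0.0242). These transporter and immunoproteasome peaks were all higher in replicate 2 than in replicate 1 in every line, by 0.17 to 0.66 on the log2 scale of normalized counts.

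**Figure D2:**
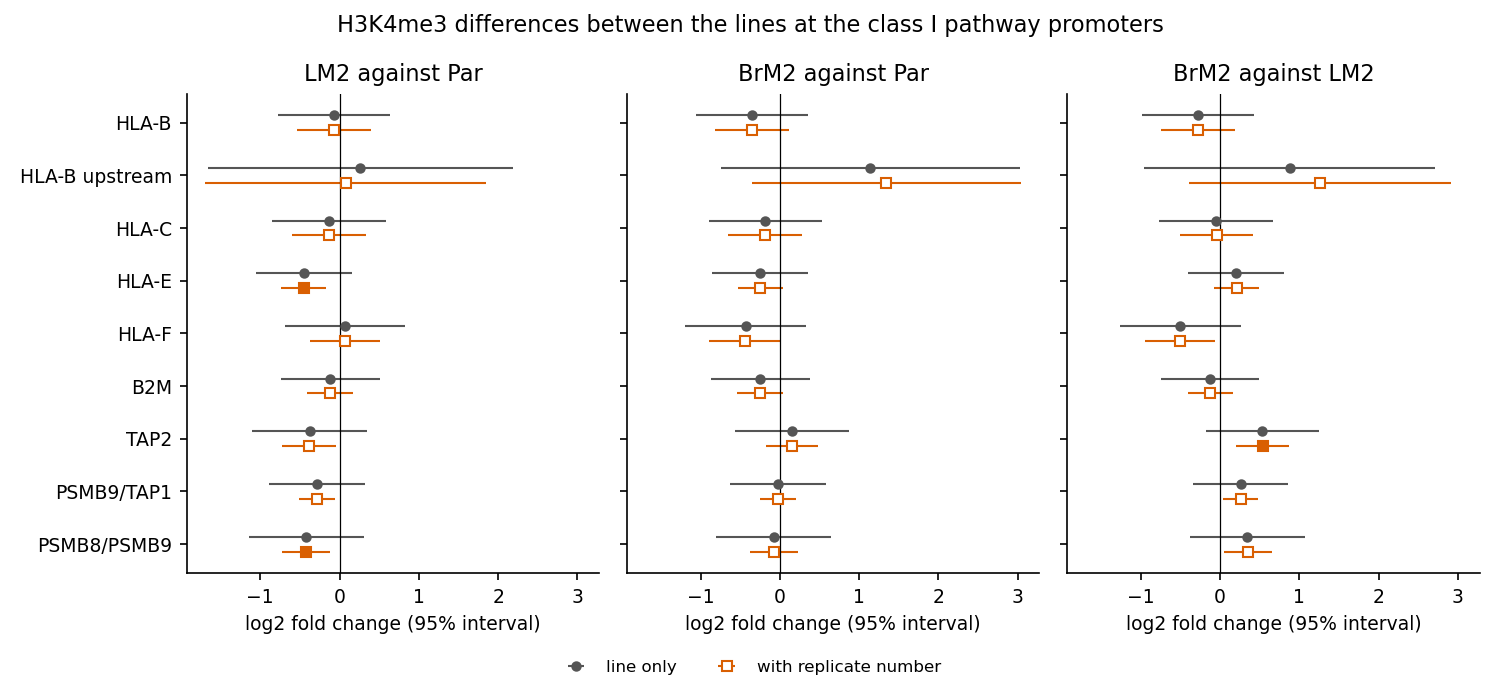
Log2 fold change of H3K4me3 with its 95% interval (horizontal axis) at the 9 promoter peaks (vertical axis) in LM2 against Par, BrM2 against Par and BrM2 against LM2, with gray circles for the DESeq2 fit with line only, orange squares for the DESeq2 fit with the replicate number, and filled squares for an adjusted p under 0.05. All gray intervals include 0, and the filled squares are HLA-E (-0.45) and PSMB8/PSMB9 (-0.42) in LM2 against Par and TAP2 (0.54) in BrM2 against LM2.

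Read by whether normalized counts of the libraries overlapped, 2 of the 8 peaks averaging 50 or more normalized counts (HLA-E and PSMB9/TAP1) had both LM2 libraries below both Par libraries, a pattern that 17.3% of all such peaks showed. In BrM2 against Par it was 2 of 8 lower (HLA-B and HLA-E), against 18.6% of all peaks. In BrM2 against LM2, 2 of 8 were higher (HLA-E and PSMB9/TAP1, 17.4% of all) and 2 of 8 lower (HLA-B and HLA-F, 17.5%). Within replicate numbers, 7 of the 8 were lower in BrM2 than in Par in both pairs, against 45.6% of all peaks, TAP2 being the exception. The size varied on the log2 scale, from -0.63 and -0.30 for HLA-F to -0.093 and -0.064 for PSMB8/PSMB9 and -0.008 and -0.037 for PSMB9/TAP1, so not all 7 were clearly lower. These peaks share libraries and, for 7 of the 8, a chromosome segment, so their counts are not independent.

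The part of chromosome 6 that holds 8 of the 9 genes had mostly lower values in LM2. Between 29 and 34 Mb, with the peaks of the 9 genes left out, the median H3K4me3 log2 fold change of 88 peaks was -0.35 in LM2 and 0.13 in BrM2 against Par, and 89.8% of them were below 0 in LM2. On the rest of the chromosome the LM2 median was -0.08 over 658 peaks, and over all 13309 peaks 0.00. H3K27ac gave a like value, a median of -0.33 in LM2 over 97 peaks of that segment, 90.7% of them below 0, beside -0.11 over all peaks. HLA-E, TAP2 and the PSMB8 and TAP1 peaks, at -0.45 to -0.28 in LM2, were close to their neighbors, while HLA-B (-0.07), HLA-C (-0.13) and HLA-F (0.07) were above most of them.

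With the median of the peaks within a 5 Mb window removed from each library, LM2 values were -0.09 for HLA-E, -0.04 for TAP2, -0.08 for PSMB8/PSMB9 and 0.06 for PSMB9/TAP1, and they turned positive for HLA-B (0.32) and HLA-C (0.26). Against the same windows, values of BrM2 against LM2 were 0.06 for TAP2, -0.78 for HLA-B and -0.91 for HLA-F. None of these was called. With the replicate block as well, an alternative added after the data were seen, the 4 values that DESeq2 called with the block alone were no longer called, and HLA-F (-0.91, adjusted p = 0.00154) and HLA-B (-0.77, adjusted p = 0.0135) were called lower in BrM2 than in LM2 relative to their neighbors. That fit called 9.22%, 10.3%, 9.31% and 12.5% of all tested peaks in the 4 contrasts. Whether the segment and the genes share a cause was not tested.

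**Figure D3:**
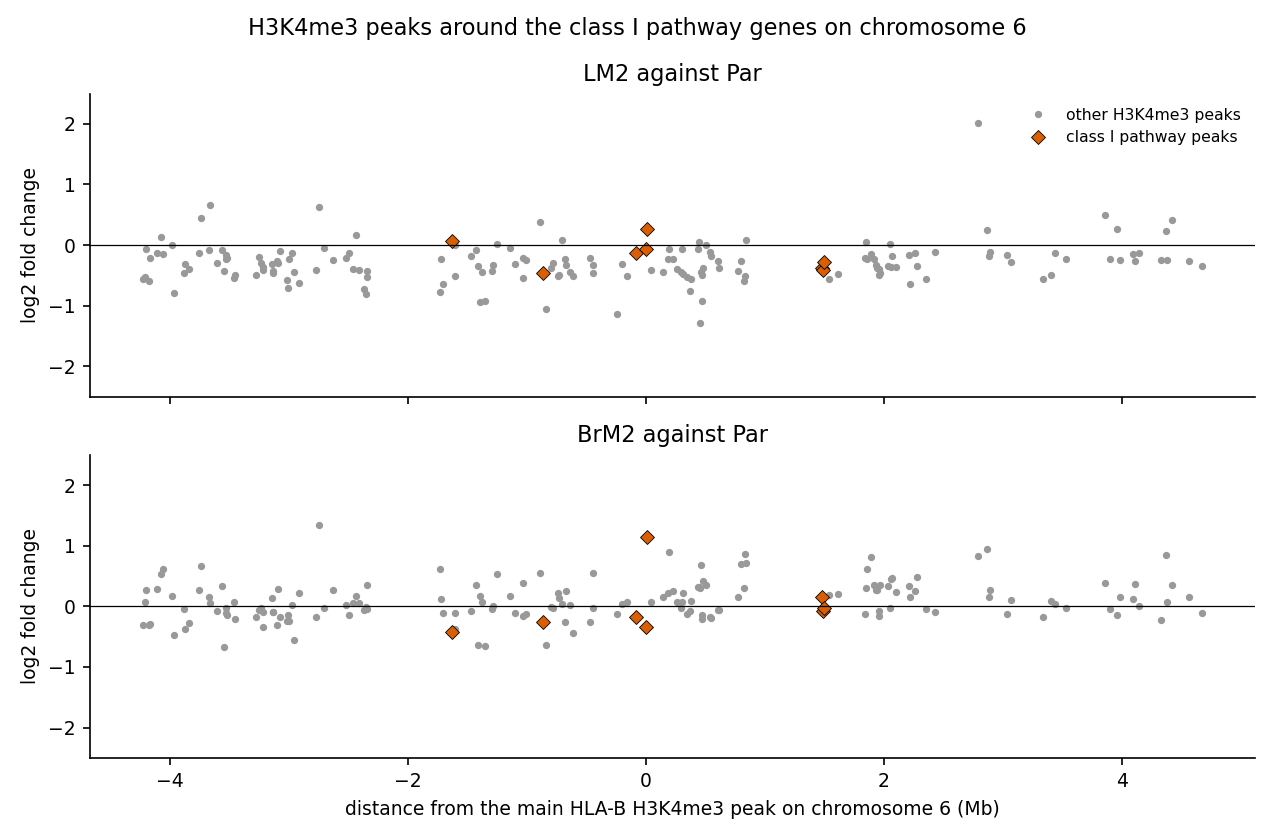
Log2 fold change of H3K4me3 (vertical axis) of each peak in the region of chromosome 6 against its distance from the main HLA-B peak in Mb (horizontal axis), for LM2 against Par (top) and BrM2 against Par (bottom). Gray points are other peaks averaging 50 or more normalized counts and orange diamonds the class I pathway peaks. Most gray points lie below 0 in LM2, where the median of those between 29 and 34 Mb is -0.35, and around 0 in BrM2.

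For H3K27ac, the 22 peaks were spread unevenly over the genes: 8 were linked to HLA-E, 3 each to HLA-F and B2M, 2 to HLA-C, and 1 each to HLA-B and TAP2, while 4 were linked to PSMB8, PSMB9 or TAP1. None of the 22 was called by DESeq2 in LM2 against Par (3.63% of all tested peaks called), BrM2 against Par (5.29%), the mean of both (4.85%) or BrM2 against LM2 (2.94%). In those contrasts 0, 4, 2 and 4 of the 22 had an unadjusted p under 0.05, and edgeR called 0, 1, 0 and 0, beside 5.14%, 6.88%, 6.32% and 3.89% of all peaks. With the block, DESeq2 called 0, 1, 0 and 1 of the 22 (5.44%, 8.13%, 7.66% and 6.17% of all tested peaks) and edgeR 1, 4, 2 and 4 (13.2%, 15.9%, 15.1% and 12.5%). Member medians were -0.12 in LM2 and 0.11 in BrM2, beside -0.11 and -0.04 over all peaks averaging 50 or more normalized counts. Independent filtering left 2 or 3 of the 22 without an adjusted p, depending on the contrast.

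The HLA-E peaks lay up to 30.5 kb after and 22.4 kb before its start, and several had their highest values in BrM2. The intergenic peak 10.5 kb after the start (chr6:30467780-30469648) had 11.6 and 7.83 CPM in Par, 15.04 and 11.97 CPM in LM2, and 24.0 and 21.6 CPM in BrM2. Both BrM2 libraries were above all others. The log2 fold change of this HLA-E peak in BrM2 against Par was 1.23 ± 0.41 (95% interval 0.42 to 2.04, adjusted p = 0.0544), and it was called with the replicate block in DESeq2 (1.24 ± 0.39, adjusted p = 0.0226) and by edgeR without it (adjusted p = 0.0340). With the block, edgeR also called it for the mean of both sub-populations (adjusted p = 0.0197) and in BrM2 against LM2 (0.0416). Leaving out single libraries gave adjusted p-values of 0.115 to 0.587. With window medians removed, the value was 1.11.

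The intergenic peak 30.5 kb after the HLA-E start (chr6:30487755-30491107) had 33.3 and 17.7 CPM in Par, 21.4 and 10.9 CPM in LM2, and 35.2 and 28.1 CPM in BrM2. Par overlapped both other lines, and the BrM2 libraries were above those of LM2. Between BrM2 and LM2 this HLA-E peak differed by 1.03 ± 0.42 (adjusted p = 0.197), and with the block in DESeq2 by 1.07 ± 0.33 (adjusted p = 0.0243). In LM2 against Par edgeR with the block also called it (adjusted p = 0.0401), where the LM2 values were the lower ones. The value with window medians removed was 0.62.

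**Figure D4:**
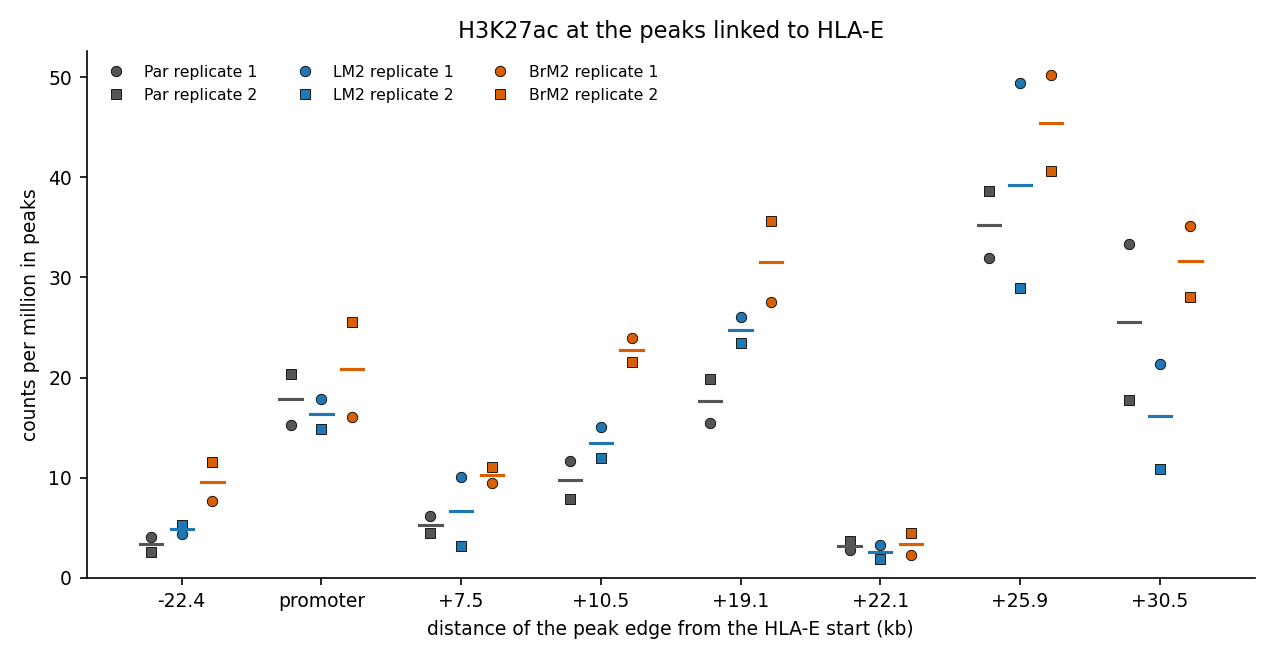
H3K27ac in CPM (vertical axis) at the 8 peaks linked to HLA-E, ordered along the chromosome by distance from the HLA-E start in kb (horizontal axis), with circles for replicate 1, squares for replicate 2 and bars for the mean of each line. BrM2 is above both other lines at the peaks 22.4 kb before and 10.5 and 19.1 kb after the start, and the promoter peak overlaps between lines.

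Of the other HLA-E peaks, among which some are named here after their values were seen, the one 22.4 kb before the start (chr6:30433904-30434862) had 4.11 and 2.61 CPM in Par, 4.34 and 5.32 CPM in LM2, and 7.65 and 11.5 CPM in BrM2, and the one 19.1 kb after it (chr6:30476354-30478480) had 15.5 and 19.8 CPM in Par, 26.0 and 23.4 CPM in LM2, and 27.5 and 35.6 CPM in BrM2. DESeq2 called neither with or without the block, with BrM2 log2 fold changes of 1.48 ± 0.60 (adjusted p = 0.145 without the block) and 0.83 ± 0.36 (adjusted p = 0.187). With the block, edgeR called both in BrM2 against Par (adjusted p = 0.0120 and 0.0159) and the second also for the mean of both sub-populations (0.0335). The strongest, 25.9 kb after the start in the noncoding RNA gene LINC02569 (chr6:30483197-30485697), had 31.9 and 38.6 CPM in Par, 49.5 and 28.99 CPM in LM2, and 50.2 and 40.6 CPM in BrM2, with BrM2 above Par, by 0.37 ± 0.34 (adjusted p = 0.702), and LM2 overlapping both. At the HLA-E promoter itself (chr6:30456720-30458024) the H3K27ac levels were 15.3 and 20.4 CPM in Par, 17.8 and 14.9 CPM in LM2, and 16.1 and 25.6 CPM in BrM2, and all lines overlapped.

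At the other promoters, TAP2 (chr6:32804845-32807595) was the one with BrM2 apart. It had 13.2 and 16.4 CPM in Par, 13.3 and 14.9 CPM in LM2, and 22.9 and 25.6 CPM in BrM2. The TAP2 log2 fold changes were 0.71 ± 0.38 in BrM2 against Par (adjusted p = 0.357) and 0.85 ± 0.38 against LM2 (adjusted p = 0.265), and neither was called by DESeq2 with the block, while edgeR with the block called the difference from LM2 (adjusted p = 0.0256). B2M (chr15:45002837-45005783) had 20.98 and 23.0 CPM in Par, 18.8 and 28.5 CPM in LM2, and 19.6 and 25.1 CPM in BrM2, with log2 fold changes of 0.03 ± 0.37 in LM2 and 0.01 ± 0.38 in BrM2. The PSMB8/PSMB9 promoter had 16.4 and 24.5 CPM in Par, 15.3 and 21.8 CPM in LM2, and 14.0 and 26.6 CPM in BrM2. PSMB9/TAP1 (chr6:32819692-32823041) had 26.9 and 26.6 CPM in Par, 17.5 and 25.3 CPM in LM2, and 17.8 and 22.6 CPM in BrM2, below Par in both sub-populations by -0.40 ± 0.36 and -0.42 ± 0.37, neither called.

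The other peaks linked to PSMB9 alone lay 6.48 and 39.1 kb from its start, and they too are named after their values were seen. The nearer (chr6:32828446-32829458) had 4.33 and 2.09 CPM in Par, 5.58 and 3.99 CPM in LM2, and 9.94 and 6.52 CPM in BrM2, with a BrM2 log2 fold change of 1.37 ± 0.63 (adjusted p = 0.238). The farther (chr6:32861080-32863665), in noncoding RNA genes, had 12.5 and 25.8 CPM in Par, 13.6 and 17.3 CPM in LM2, and 23.7 and 29.1 CPM in BrM2. BrM2 was above LM2 at both, and DESeq2 called neither with or without the block. With the block, edgeR called the nearer in BrM2 against Par (adjusted p = 0.0194) and the farther in BrM2 against LM2 (0.0254).

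The lowest promoters followed. HLA-C (chr6:31239325-31241163) had 4.79 and 8.09 CPM of H3K27ac in Par, 4.34 and 5.58 CPM in LM2, and 3.06 and 5.51 CPM in BrM2. HLA-B had 1.596 and 3.65 CPM in Par, 1.86 and 1.86 CPM in LM2, and 1.78 and 4.01 CPM in BrM2. HLA-F had 0.456 and 2.09 CPM in Par, 2.33 and 2.93 CPM in LM2, and 1.53 and 0.501 CPM in BrM2. The strongest peak linked to HLA-F lay 26.2 kb from its start and had 9.35 and 18.0 CPM in Par, 8.06 and 14.6 CPM in LM2, and 6.88 and 8.02 CPM in BrM2. The strongest linked to HLA-C lay 24.7 kb from its start, with 4.52 to 9.69 CPM over the 6 libraries. Of the 10 linked peaks averaging 50 or more normalized counts, 4 had both BrM2 libraries above both Par libraries, against 25.2% of all such peaks, and 1 had them below (28.0%).

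Other genes of the pathway were read from lists at their H3K4me3 promoter peaks. In the DESeq2 fit without the block, 0 of 9 peaks of peptide loading and trimming genes, 0 of 3 peaks of PSMB10 and the proteasome activator, 0 of 13 peaks of the constitutive proteasome, 0 of 7 of other class I genes, 0 of 24 of regulators and 0 of 8 of class II genes were called in any contrast. That fit called 2.51% of all tested peaks in LM2 against Par, 3.61% in BrM2 against Par, 2.63% for their mean and 3.18% in BrM2 against LM2, so few calls could stand in lists this short. With the replicate block, DESeq2 called 14.4% of all tested peaks in LM2 against Par, 17.7% in BrM2 against Par and 22.0% in BrM2 against LM2. TAPBP, which bridges TAP and the heavy chain and lies in the same segment, was lower in LM2 (-0.48 ± 0.12, adjusted p = 0.00144) and higher in BrM2 than in LM2 (0.40 ± 0.12), from 112 and 150 CPM in Par to 73.0 and 111 CPM in LM2. Of the 9 loading and trimming peaks, those of TAPBPL, a TAPBP-related protein (0.98 ± 0.26), and of the chaperone CALR (0.38 ± 0.13) were also higher in BrM2 than in LM2. PSME2, an activator subunit on chromosome 14, was lower in LM2 (-0.40 ± 0.12). MICA and MICB, stress ligands next to HLA-B, were lower in LM2 (-0.41 ± 0.11 and -0.44 ± 0.12) and higher in BrM2 than in LM2 (0.49 ± 0.11 and 0.59 ± 0.11). Of the 13 constitutive proteasome peaks, 1 was higher in LM2 (the stronger of the peaks at PSMA1 starts, 0.73 ± 0.12). In LM2 4 were lower (PSMB1, PSMB2, PSMB5 and PSMA6, -0.67 to -0.54), beside 14.4% of all tested peaks called. In BrM2 against LM2 4 were higher (PSMB2, PSMB5, PSMA6 and PSMB3, 0.24 to 0.75), beside 22.0%. In BrM2 against Par 2 were higher and 3 lower, beside 17.7%. The stronger peak at a start of PSMA1, a structural subunit of the proteasome core, was higher there (0.52 ± 0.12), as was PSMB3 (0.24 ± 0.09). PSMB1 (-0.47 ± 0.14), PSMB7 (-0.61 ± 0.20) and PSMA7 (-0.27 ± 0.09) were lower. The other PSMA1 peak had 56.2 and 70.9 CPM in Par, 47.3 and 71.9 CPM in LM2, and 61.1 and 74.6 CPM in BrM2. DESeq2 with the block called it in no contrast. Of the 8 class II peaks, the stronger of those over an annotated start of HLA-DMA, a peptide exchange factor, was lower in LM2 (-0.47 ± 0.10). It was higher in BrM2 than in LM2 (0.69 ± 0.10), and had 277 and 436 CPM in Par. A weak HLA-DMA peak, with 2.87 and 7.00 CPM in Par, was not called. The stronger peak was assigned to HLA-DMA by such a start alone, and whether it reflects HLA-DMA or another gene was not tested. Its values are therefore not read as a change of class II genes. MICA, MICB and HLA-DMA also lie in the segment whose other peaks had a median of -0.35 in LM2.

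Among 24 peaks of the regulators, with the block in DESeq2, 1 was higher and 1 lower in LM2 (14.4% of all tested peaks were called), and 1 was higher and 2 lower in BrM2 (17.7%). The higher one in BrM2 was a second, weaker peak of IRF1, an interferon-induced activator of class I genes (0.63 ± 0.19). It went from 26.7 and 42.3 CPM in Par to 40.8 and 70.5 in BrM2. The main IRF1 peak had 183 and 130 CPM in Par and 156 and 118 in BrM2, and was not called in BrM2 against Par. The lower ones in BrM2 were NFKB1 (-0.43 ± 0.12) and NFYA (-0.24 ± 0.09). In LM2, RFXAP, a subunit of the RFX complex that binds class I and class II promoters, was higher (0.57 ± 0.16) and NFYA lower (-0.42 ± 0.09). IRF9 was higher in BrM2 than in LM2 (1.46 ± 0.40), while RFXAP, JAK2 and the main IRF1 peak were lower, beside 22.0% of all tested peaks. NLRC5, the class I transactivator, had 30.4 and 54.2 CPM in Par, 17.4 and 44.9 CPM in LM2, and 26.4 and 50.1 CPM in BrM2, and was not called by DESeq2 in any contrast with or without the block.

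Across the 6 libraries the 9 H3K4me3 peaks did not move as one, with pairwise Pearson correlations of log2 normalized counts from -0.57 to 0.96 and a median of 0.34, given as a description over libraries that share lines and replicate numbers. The genes outside the segment whose promoter peak was most like the mean profile of the 9 peaks, among 11546 candidates, were CREBL2 (r = 0.996), GNPDA2 (0.994), ZNF608 (0.994), ZW10 (0.994) and TARS1 (0.992).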

How the data were processed

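H3K4me3 and H3K27ac were measured by ChIP-seq in Par, LM2 and BrM2, with 2 libraries per line and mark; 3 input libraries are not analysed here. The authors deposited raw read counts per consensus peak for each mark (hg19), and these counts are not normalized. Per the labels and methods, base calls came from CASAVA 1.8.2, reads were trimmed (Trimmomatic 0.32), aligned (Bowtie2 2.3.4.3), marked for duplicates (Picard 2.18.21) and filtered with samtools flag 1804, and broad peaks were called with MACS2 2.1.2 on libraries merged over lines and replicates. Per the file headers, reads were counted with featureCounts 1.6.0, each extended by 150 bases at its 3′ end. Because peaks were called on merged libraries, a peak can be counted in a line where it was not called. The deposited peak lists hold the same peaks as the count tables and were not used further. All 12 count columns were matched to samples.

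From the counts, each mark was fitted over all peaks and its 6 libraries with DESeq2 1.42.0 (R 4.3.3; Wald test, cell line as the only term, median-of-ratios size factors, default independent filtering, Benjamini-Hochberg adjustment, called under 0.05). The lines shared 1 estimate of spread with 3 residual degrees of freedom, or 2 with the replicate block. CPM are counts scaled to the total in peaks of the mark; intervals are 95% normal intervals of the fit. Starts came from GENCODE 44 mapped to GRCh37, and promoter sequences from RefSeq (GRCh38.p14). Same-numbered libraries of different lines deviated together from their line means, with correlations of 0.788 to 0.843 in H3K4me3 and 0.407 to 0.607 in H3K27ac, above the limit of 0.1 for every pair of lines, so the replicate number was added as a block, and its value is given where it changes a call in DESeq2 or in edgeR. The labels do not say what the number stands for. Libraries of the same line differed by more than sampling noise (chi-square per degree of freedom 2.29 to 13.0).

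Alternatives were edgeR 4.0.16 (quasi-likelihood test, TMM scaling), other size factors, a minimum of 10 counts in 2 libraries, independent filtering off, the block, the median of peaks in a 5 Mb window removed from each library, other peak distances, and each library left out. Values are given for every member H3K4me3 peak, and in H3K27ac for promoter peaks, the strongest linked peak of each gene and called peaks; any other named peak is said to be so. The members, gene lists and tests were chosen with earlier results of these data known. The fit was tested on simulated data for LM2 against Par, in which libraries shared no replicate effect, unlike the real ones. Without the block it recovered 21 of 100 H3K4me3 peaks and 14 of 100 H3K27ac peaks changed by 1 on the log2 scale. Of those changed by 2 it recovered 95 and 79 of 100. With the block it recovered 21 and 8 of those changed by 1, and 93 and 71 of those changed by 2. A peak that was not called can therefore still differ between the lines. In each mark 13 unchanged peaks were called without the block and 12 with it, so a call can also be false. Some items of the marker, regulator and motif lists are not reported here.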

Additional observations from a re-analysis of the deposited data

Results flagged for a closer look

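Both of the following measurements stood out because BrM2 and LM2 differed in a test of that difference itself, and they passed only in the fit with the replicate number. H3K27ac at the peak 30.5 kb after the HLA-E start (chr6:30487755-30491107) was higher in BrM2 than in LM2 by 1.07 on the log2 scale (DESeq2 with the block, adjusted p = 0.0243), against 1.03 with an adjusted p of 0.197 without it, and BrM2 was above LM2 in both replicate numbers. H3K4me3 at the TAP2 promoter (chr6:32804939-32806678) was higher in BrM2 than in LM2 by 0.54 (adjusted p = 0.0110), against 0.53 with an adjusted p of 0.714 without the block, again in both replicate numbers. With window medians removed as well, the TAP2 value was 0.07 and that of the HLA-E peak 0.69, and neither was called.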

How the results depend on the processing

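Over all H3K4me3 peaks, calls for LM2 and for BrM2 against Par, for their mean against Par and for BrM2 against LM2 were 523, 800, 536 and 717 without it, 2871, 3909, 2974 and 4771 with the block in DESeq2, 5903, 7512, 6126 and 8720 with the block in edgeR, and 1840, 2333, 1817 and 2704 with the block and window medians removed. Over all H3K27ac peaks they were 1776, 2715, 2372 and 1366, against 3195, 4280, 3929 and 2419 in edgeR and 8213, 9892, 9411 and 7803 in edgeR with the block. BrM2 against LM2 gave 2574 with the block in DESeq2 and 861 with window medians removed. Of the 9 H3K4me3 peaks of the class I genes, the block in DESeq2 called 2, 0, 1 and 1, edgeR with the block 4, 3, 2 and 4, and the block with window medians 2 in BrM2 against LM2. Of the 22 H3K27ac peaks, edgeR called 1 in BrM2 against Par, DESeq2 with the block 1 there and 1 in BrM2 against LM2, and edgeR with the block 1, 4, 2 and 4. The block in DESeq2 changed no other call of these peaks. No peak of these genes was called under other size factors, filters, peak distances or start definitions, or with any single library left out.

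No called value changed direction. Of 36 H3K4me3 values, 6 changed sign with window medians removed, with and without the block: HLA-C (0.26, and 0.23 with the block), HLA-B (0.32 and 0.30) and PSMB9/TAP1 (0.060 and 0.063) in LM2 against Par, and HLA-E (-0.23 and -0.21), PSMB8/PSMB9 (-0.12 and -0.12) and PSMB9/TAP1 (-0.21 and -0.22) in BrM2 against LM2. Total-count size factors turned PSMB9/TAP1 in BrM2 against Par to 0.035 and HLA-C in BrM2 against LM2 to 0.056. Of 88 H3K27ac values, 12 changed sign with window medians removed, 10 with the block as well, 2 in edgeR with and without the block, and 1 with the block in DESeq2. The causes were not tested.

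With single libraries left out, calls over all H3K4me3 peaks ranged over 100 to 401, 247 to 720, 93 to 393 and 196 to 625, lowest without Par replicate 2, or without BrM2 replicate 2 for BrM2 against LM2. For H3K27ac they ranged over 358 to 1276 (lowest without LM2 replicate 1), 517 to 1976 (BrM2 replicate 1), 597 to 1352 (Par replicate 2) and 103 to 1053 (BrM2 replicate 1). Fewer libraries leave fewer degrees of freedom. Signs changed in 23 of 216 H3K4me3 and 73 of 528 H3K27ac values. In LM2 against Par the ranges were -0.25 to 0.034 for B2M, -0.11 to 0.26 for HLA-F, -0.28 to 0.062 for HLA-C, -0.13 to 0.0079 for HLA-B and -2.62 to 1.01 for the upstream HLA-B peak. In BrM2 against Par they were -0.35 to 0.0048 for HLA-C, -0.092 to 0.39 for TAP2, -0.32 to 0.17 for PSMB8/PSMB9, -0.14 to 0.081 for PSMB9/TAP1 and -0.062 to 0.84 for the H3K27ac peak 30.5 kb from HLA-E. In BrM2 against LM2 they were -0.26 to 0.022 for B2M and -0.16 to 0.071 for HLA-C. Depth limits the promoter H3K27ac peaks of HLA-B and HLA-F most.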
